A study of Mus musculus with 4 samples.

Results

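NF-kB is a family of transcription factors that drives the inflammatory programme of macrophages. The account below covers 10 genes of this system, chosen by name, among the 40213 gene symbols measured. They encode the 5 DNA-binding subunits (Nfkb1, Nfkb2, Rela, Relb and Rel), 3 cytoplasmic inhibitors (Nfkbia, Nfkbib and Nfkbie), the kinase complex scaffold Ikbkg and the ubiquitin-editing enzyme Tnfaip3. RNA was sequenced from RAW264.7 cells, a virus-transformed mouse macrophage line, 48 h after attached cells met a hydrogel. Sample titles named 2 libraries CuNZ@Gel and 2 libraries Gel, and the series title describes a nanozyme hydrogel for diabetic wounds. The treatment text names CuNZ@Gel alone, so that what the Gel cells received is known from the titles, and the labels do not spell out CuNZ. Both groups are of 1 line, and nothing in the labels says that the replicates were separate cultures, and the p-values therefore reflect only how far these libraries differ, which may be technical.

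NF-kB subunits act as dimers that inhibitors of the IkB family hold in the cytoplasm of resting cells. Signals from pattern recognition or cytokine receptors activate a kinase complex that Ikbkg organises, the inhibitors are phosphorylated and degraded, and the dimers enter the nucleus. Dimers of Rela or Rel with the Nfkb1 product serve this fast route, and Relb with the Nfkb2 product serves a slower one. Several of the genes, Nfkbia and Tnfaip3 among them, are themselves NF-kB targets and close feedback loops. RNA levels of these genes do not show where the proteins are or whether they bind DNA.

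Promoter windows were taken from RefSeq (build GRCm38.p6), which gave 14 windows for 8 of the 10 genes, from 250 bases before to 50 bases after an annotated start. Nfkb1 and Relb had none in the table. The NF-kB consensus site, searched on both strands, was found in windows of Nfkb2, Rel, Nfkbia, Nfkbie and Tnfaip3, so for 5 of 8 genes, beside 5.14% of the 27025 genes in the table. Counted by window it was in 7 of 14, beside 4.51% of all 32851 windows, and 3 of the 7 belonged to Nfkb2. The narrower Rela-type site, GGG and TTTCC with any 2 bases between them, which overlaps the consensus, was found for Nfkb2, Rel, Nfkbia and Tnfaip3, in 6 of 14 windows beside 1.63% of all windows. The stretches are shown because several members are known as targets of NF-kB themselves. Capitals mark each consensus match, all sequences run 5′ to 3′ on the strand of the gene, and each stretch lies before the start. The Nfkbia stretch (chr12:55492648-55492897, minus strand) is the whole upstream part of its window. Those of Nfkb2 (chr19:46304678-46304736, plus strand), Rel (chr11:23771031-23771081, minus strand), Nfkbie (chr17:45555574-45555623, plus strand) and Tnfaip3 (chr10:19015411-19015555, minus strand) hold the matches and their flanks.
Nfkbia: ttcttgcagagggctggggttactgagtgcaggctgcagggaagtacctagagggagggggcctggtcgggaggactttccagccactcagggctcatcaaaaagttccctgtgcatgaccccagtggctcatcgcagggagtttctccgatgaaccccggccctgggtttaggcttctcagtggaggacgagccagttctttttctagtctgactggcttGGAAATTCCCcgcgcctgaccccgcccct
Nfkb2: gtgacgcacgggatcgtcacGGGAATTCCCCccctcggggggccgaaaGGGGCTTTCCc
Rel: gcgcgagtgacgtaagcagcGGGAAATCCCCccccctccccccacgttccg
Nfkbie: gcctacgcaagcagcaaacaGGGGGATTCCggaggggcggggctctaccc
Tnfaip3: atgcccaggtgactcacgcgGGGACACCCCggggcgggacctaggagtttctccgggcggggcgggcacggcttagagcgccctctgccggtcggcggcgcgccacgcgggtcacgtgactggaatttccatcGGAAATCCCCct
The Nfkbia match began 29 bases before the start, and the matches of Nfkb2 in this stretch began 39, 38 and 11 bases before it. These matches are letters in a window and do not show that a factor was bound.

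Each deposited value was log2(x + 1), and x, CPM after division by 1 factor per library, is called scaled CPM here. Recovered library totals ran from 13707000 to 14868000 reads, and each member had 100 to 2186 reads in every library. Groups were compared with limma on the deposited log2 values of 11588 genes that reached 1 scaled CPM in 2 or more libraries, and a gene was called at a Benjamini-Hochberg adjusted p under 0.05. All 10 members passed this filter. Log2 changes are CuNZ@Gel minus Gel on the log2(scaled CPM + 1) scale, and levels are means ± SD of scaled CPM. The comparison was broad, since 67.1% of the tested genes were called, 32.2% raised and 34.8% lowered. Within a group, libraries correlated across the tested genes at a Pearson r of 0.995 for CuNZ@Gel and 0.995 for Gel, against 0.930 to 0.938 between groups, and genes are not independent replicates.
The 10 macrophage markers listed summed to 9164 and 8924 scaled CPM in CuNZ@Gel, against 5665 and 5833 in Gel. Most of the sum was Lyz2, the lysozyme gene, and without it the sums were 3164 and 3148 scaled CPM in CuNZ@Gel, against 2661 and 2677 in Gel. Of the 10, 9 were tested, and 6 of these were raised and 2 lowered, so 88.9% were called beside 67.1% of all tested genes. Marker lists of fibroblasts, epithelium, T cells, B cells, neutrophils and endothelium each summed to 0.441 to 2.84 scaled CPM in CuNZ@Gel and to 0.0725 to 1.87 in Gel. Lum, Cd3e, Cd3g, Ms4a1, S100a9 and Mpo were listed at 0 in all libraries. Pdgfrb and Pecam1 were the 2 genes of these lists that were tested, and both were raised. Pdgfrb had 1.39 and 1.08 scaled CPM in CuNZ@Gel, against 0.362 and 0.234 in Gel. Pecam1 had 2.21 and 1.40 scaled CPM in CuNZ@Gel, against 0.0725 and 0.0777 in Gel. Both passed the filter only through CuNZ@Gel, so that a lowered call was not open to them. The part of these shifts in the values of the NF-kB genes was not tested, and in such bulk RNA fewer cells of a type and less RNA per cell cannot be told apart.

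Of the 10 NF-kB genes, 7 were called, 3 raised and 4 lowered, a share of 70.0% beside the 67.1% of all tested genes. Groups did not overlap for 9 of the 10, beside 83.2% of all tested genes. Both shares lay near the background. The median log2 change of the 10 was -0.22, and -0.03 over all tested genes. Ikbkg, Rela and Rel were raised, and Nfkb1, Relb, Nfkbia and Nfkbib were lowered. Ikbkg had a larger absolute log2 change than 95.2% of the tested genes, Nfkbib than 72.9%, Nfkbia than 62.8% and Nfkb1 than 49.8%. When tested against a minimum fold of 1.5, Ikbkg was the 1 member called as raised and 0 were called as lowered by limma (0 of the lowered ones also at an unadjusted p under 0.05).

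**Figure D1:**
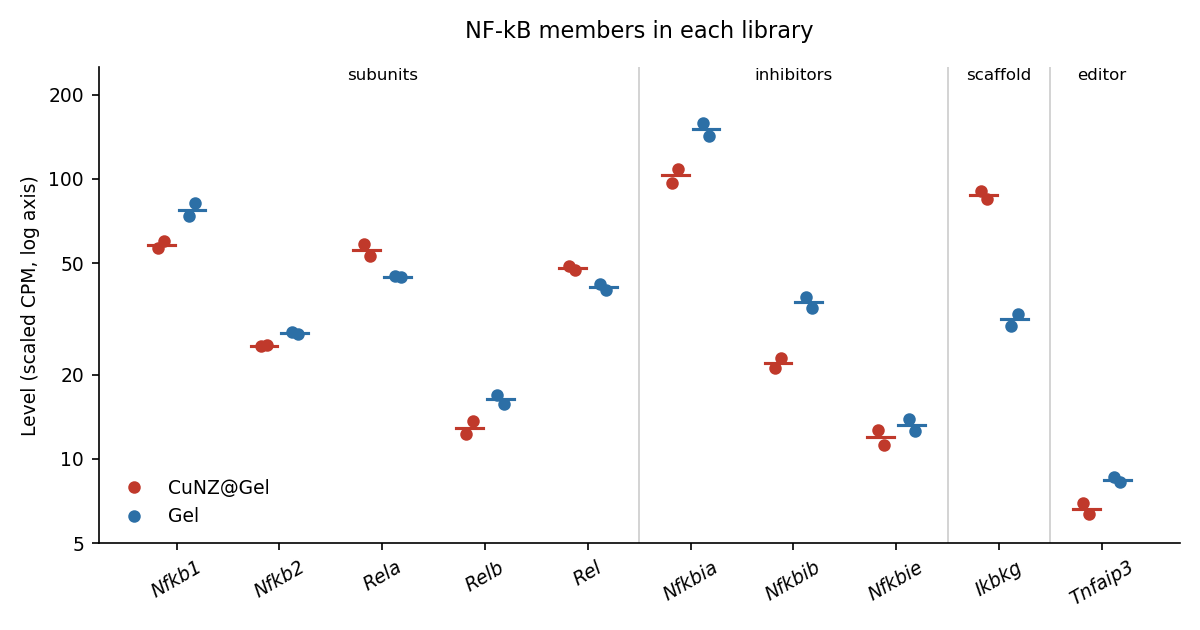
Level of each NF-kB gene in scaled CPM on a log axis, with 1 point per library and a bar at the mean of each group (n = 2 libraries per group), CuNZ@Gel in red and Gel in blue. Ikbkg sits at 84.7 to 90.8 in CuNZ@Gel against 29.9 to 33.0 in Gel, and the libraries of Nfkbie overlap between the groups, at 11.2 to 12.7 in CuNZ@Gel against 12.6 to 13.9 in Gel.

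Rela encodes the main transactivating subunit. Its level was 58.5 and 52.8 scaled CPM in CuNZ@Gel, against 45.0 and 44.6 in Gel. Both CuNZ@Gel libraries lay above both Gel libraries, and the CuNZ@Gel pair was spread wider than the Gel pair. The ratio of the group means was 1.24, and the log2 change was 0.31 ± 0.0836 (SE), with a limma adjusted p of 0.00293. Rel, the c-Rel subunit of blood cells, had 48.8 and 47.3 scaled CPM in CuNZ@Gel, against 42.2 and 40.2 in Gel. The groups did not overlap, and its log2 change was 0.22 ± 0.0842 (SE) with a limma adjusted p of 0.0278. This call was lost without Gel replicate 1 (0.25), without Gel replicate 2 (0.18) or without CuNZ@Gel replicate 1 (0.20). When each library was corrected for the length and GC content of transcripts, Rel had a log2 change of -0.19 and passed the test in the other direction, so its direction depends on that step. Over 11107 tested genes the Pearson r between log2 change and log2 length was 0.285, with genes not being independent replicates, and the longest transcript of Rel, at 7.47 kb, was the longest among the 10 genes.

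Nfkb1 encodes the precursor of the usual dimer partner of Rela. It had 56.4 and 60.1 scaled CPM in CuNZ@Gel, against 73.4 and 81.8 in Gel. The lowest Gel library lay above the highest CuNZ@Gel library. Its level thus moved opposite to that of Rela, with a log2 change of -0.41 ± 0.0793 (SE) and a limma adjusted p of 1.27e-04. The log2 difference between Nfkb1 and Rela within a library was -0.05 and 0.18 in CuNZ@Gel, against 0.69 and 0.86 in Gel. With 2 libraries a group an exact permutation test cannot give a p below 0.333, so such differences within a library are given without one.

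Neither subunit of the slower route was raised. Relb had 12.2 and 13.6 scaled CPM in CuNZ@Gel, against 16.9 and 15.7 in Gel, with a log2 change of -0.31 ± 0.124 (SE) and a limma adjusted p of 0.0304. The groups did not overlap, but the call rested on single libraries, since it was lost without Gel replicate 1 (-0.27) or without CuNZ@Gel replicate 1 (-0.24). It was lost as well with libraries scaled by total reads only (-0.14), without the filter on low values (-0.31) and after the length and GC correction (-0.20). Nfkb2 had 25.3 and 25.4 scaled CPM in CuNZ@Gel, against 28.3 and 27.9 in Gel. Its log2 change of -0.14 had a 95% interval from -0.35 to 0.06 and did not pass (limma adjusted p = 0.211), and it was 0.04 with total reads only. Map3k14, the kinase that starts this route, named after its values were seen, did not pass either, at 7.12 and 10.2 scaled CPM in CuNZ@Gel against 10.8 and 10.7 in Gel (log2 change -0.30), but it passed without CuNZ@Gel replicate 2 (-0.53).

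Because library values are not divided by gene length, levels of different genes were set side by side per kb of the longest transcript in GENCODE vM21. On this scale the summed level of the 5 subunits was 52.0 and 51.0 scaled CPM per kb in CuNZ@Gel, against 52.4 and 53.6 in Gel. On the deposited scaling the sum was therefore about level between the groups while its makeup differed. That scaling divided CPM by 1.07 and 1.07 in CuNZ@Gel, and by 0.937 and 0.936 in Gel. Without it the CuNZ@Gel sums would be higher and the Gel sums lower, while shares within a library would stay the same. Rela made up 41.5% and 38.1% of the sum in CuNZ@Gel, against 31.6% and 30.6% in Gel. Nfkb1 made up 26.1% and 28.4% in CuNZ@Gel, against 33.8% and 36.8% in Gel. In CuNZ@Gel libraries Rela stood first (20.5 ± 1.49 scaled CPM per kb), Nfkb1 next (14.04 ± 0.630), followed by Nfkb2 (6.59 ± 0.0302), Rel (6.43 ± 0.145) and Relb (3.95 ± 0.306). In Gel libraries Nfkb1 led (18.7 ± 1.44), before Rela (16.5 ± 0.0992), Nfkb2 (7.30 ± 0.0704), Rel (5.52 ± 0.188) and Relb (4.98 ± 0.249; SD, n = 2 per group throughout). Libraries of neighbouring genes in these orders did not overlap, but Nfkb2 and Rel in CuNZ@Gel differed by no more than about the spread of Rel.

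Of the 3 inhibitor genes, 2 were lowered and the other did not pass. Nfkbia encodes the main inhibitor, IkB alpha, which NF-kB itself induces to end its own activity. It had 97.0 and 109 scaled CPM in CuNZ@Gel, against 158 and 143 in Gel. All CuNZ@Gel values lay below all Gel values, by more than the spread within either pair. The ratio of the means was 0.683, and the log2 change was -0.55 ± 0.0736 (SE) with a limma adjusted p of 1.37e-06. With the length and GC correction the fall of Nfkbia was smaller (-0.32) and still passed. Nfkbib, which encodes the more stable inhibitor IkB beta, had 21.1 and 22.9 scaled CPM in CuNZ@Gel, against 37.9 and 34.6 in Gel. It showed the largest fall among the 10 genes, with a ratio of the means of 0.608 and a log2 change of -0.69 ± 0.1001 (SE; limma adjusted p = 3.54e-06). With the length and GC correction it was -0.41 and still passed, a smaller fall than those of Nfkb1 (-0.55) and Tnfaip3 (-0.59). Nfkbie, which encodes IkB epsilon, had 12.7 and 11.2 scaled CPM in CuNZ@Gel, against 13.9 and 12.6 in Gel. It was the 1 gene whose groups overlapped. Its log2 change of -0.14 had a 95% interval from -0.41 to 0.13 (limma adjusted p = 0.362), and it was 0.04 with total reads only.

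Per kb, Nfkbia was the highest of all 10 genes in both groups, at 65.2 ± 5.22 scaled CPM per kb in CuNZ@Gel and 95.5 ± 7.01 in Gel (SD, n = 2 each). It made up 80.9% and 82.3% of the summed inhibitor level in CuNZ@Gel, against 81.4% and 81.2% in Gel, so that its share of the inhibitors was about the same while their sum was not. The 3 inhibitors summed to 76.0 and 83.7 scaled CPM per kb in CuNZ@Gel, against 123 and 111 in Gel. Divided by the summed subunits this gave ratios of 1.46 and 1.64 in CuNZ@Gel, against 2.36 and 2.08 in Gel. These sums and ratios were not computed with the length and GC correction. Under it the falls of Nfkbia and Nfkbib were smaller (-0.32 and -0.41), while changes of the subunits shifted in both directions. Within a library, the log2 difference between Nfkbia and Rela was 0.72 and 1.027 in CuNZ@Gel, against 1.79 and 1.66 in Gel.

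**Figure D2:**
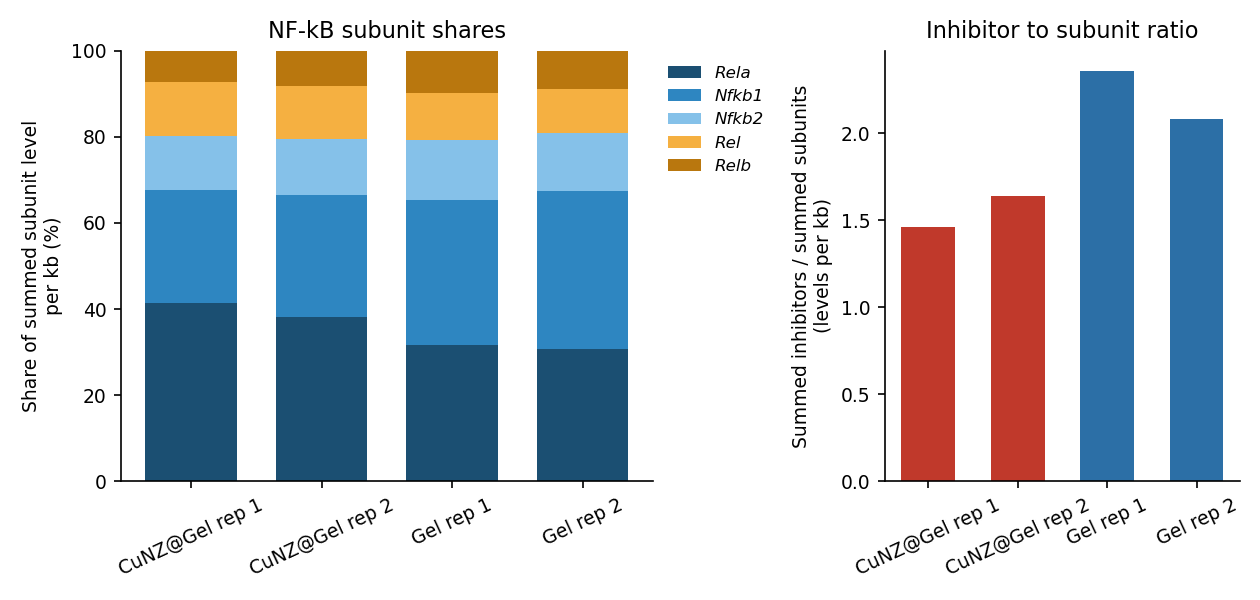
Left, share of each gene in the summed subunit level per kb of transcript in each library, in percent. Right, summed level of Nfkbia, Nfkbib and Nfkbie divided by that of the 5 subunits, per library, with CuNZ@Gel in red and Gel in blue. The Rela share is 38.1% to 41.5% in CuNZ@Gel and 30.6% to 31.6% in Gel, and the ratio is 1.46 to 1.64 in CuNZ@Gel against 2.08 to 2.36 in Gel. Levels are without the length and GC correction.

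Nfkbib shares 314 exonic bases with Ccer2 and 42 with Sirt2, both on the opposite strand in GENCODE vM21, out of 2169. Ccer2 had 1 read in each CuNZ@Gel library and 0 in each Gel library. Sirt2, a deacetylase, had 50.7 and 46.6 scaled CPM in CuNZ@Gel against 65.3 and 65.5 in Gel, a log2 change of -0.42 (limma adjusted p = 9.34e-05). Nfkb2 shares 299 of 4584 exonic bases with Psd and 531 with AC114539.1, a noncoding RNA not analysed here, both on the opposite strand. Psd had 7 to 10 reads in CuNZ@Gel and 7 to 14 in Gel. Clasrp lies within 2 kb of Relb, and Slc35b2 within 2 kb of Nfkbie, with log2 changes of -0.24 (limma adjusted p = 0.0240) and -0.16 (limma adjusted p = 0.174). The call of Clasrp was lost without Gel replicate 1 (-0.17), without CuNZ@Gel replicate 1, without the filter and with total reads only, and Slc35b2 was at 0.02 with total reads only. The use of strand in counting is not given in the sources used here, so reads in shared bases cannot be told apart by gene.

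Ikbkg, the scaffold known as NEMO that the classical kinase complex needs to respond to its signals, showed the largest change of the 10 genes. It had 90.8 and 84.7 scaled CPM in CuNZ@Gel, on 1440 and 1333 reads, against 29.9 and 33.0 scaled CPM in Gel, on 413 and 424 reads. The groups were far apart relative to the spread within each. The ratio of the means was 2.79, and the log2 change was 1.45 ± 0.0835 (SE) with a 95% interval from 1.28 to 1.63 and a limma adjusted p of 2.96e-12. In every alternative tried the gene passed the test, with log2 changes from 1.08, after the length and GC correction, to 1.64, with total reads only.

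**Figure D3:**
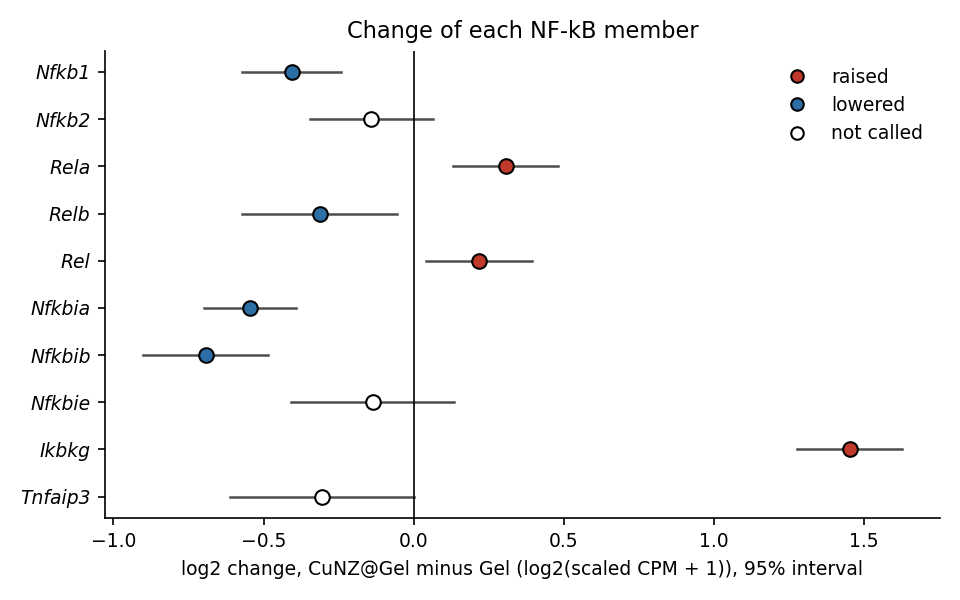
Log2 change of each NF-kB gene, CuNZ@Gel minus Gel, from limma on the deposited log2(scaled CPM + 1) values, with 95% intervals (2 libraries per group). Filled points passed an adjusted p under 0.05, red raised and blue lowered. Ikbkg stands at 1.45, and all other genes lie between -0.69 and 0.31.

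The Ikbkg locus overlaps another gene. On chromosome X, Ikbkg runs opposite to G6pdx, which encodes the first enzyme of the pentose phosphate pathway. RefSeq gives 4 start windows for Ikbkg. The third start lies 435 bases from the start of G6pdx, and from there the genes run away from each other. Their promoter windows share 66 bases. In GENCODE vM21 the gene bodies overlap and 418 of the 8110 exonic bases of Ikbkg are also exonic in G6pdx. G6pdx had 315 and 294 scaled CPM in CuNZ@Gel, against 141 and 142 in Gel, a log2 change of 1.10 (limma adjusted p = 2.39e-12). Ikbkg and G6pdx were thus both higher in CuNZ@Gel, and Ikbkg by more, since the log2 difference of Ikbkg minus G6pdx was -1.78 and -1.78 in CuNZ@Gel, against -2.20 and -2.07 in Gel. The part of G6pdx reads in the value of Ikbkg was not tested. Fam3a, within 2 kb of Ikbkg, moved the other way, with a log2 change of -0.47 (limma adjusted p = 0.00743), a call lost without CuNZ@Gel replicate 2 (-0.26), without the filter, with total reads only (-0.30) and after the length and GC correction (-0.26).
The core of the antioxidant response element, TGACNNNGC on either strand, was found in windows of both genes and in 12.4% of all windows. Among the 14 windows of the members 2 held it, a share near that of all windows. For Ikbkg only the window of the second start held it, not the window that shares bases with that of G6pdx. The core is shown because both genes were raised in these data, and whether it has a part in that was not tested. Capitals mark the match in Ikbkg upstream of its second start (chrX:74424554-74424602, plus strand) and in G6pdx (chrX:74428909-74428957, minus strand), and both sequences run 5′ to 3′ on the strand of the gene.
Ikbkg: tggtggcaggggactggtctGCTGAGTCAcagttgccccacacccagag
G6pdx: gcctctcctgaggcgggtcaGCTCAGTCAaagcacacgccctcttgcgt
The match began 38 bases before the start in Ikbkg and 57 bases before it in G6pdx. A match also began 13 bases before the start of Nfkbia, which was lowered.

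Tnfaip3 encodes the A20 enzyme, which edits ubiquitin chains and restrains NF-kB signalling. It was the lowest of the 10 genes, with 6.93 and 6.35 scaled CPM in CuNZ@Gel on 110 and 100 reads, against 8.62 and 8.25 in Gel on 119 and 106 reads. The libraries of the groups did not overlap, but the change did not pass, with a log2 value of -0.31, a 95% interval from -0.61 to -0.0003 and a limma adjusted p of 0.0711. After the length and GC correction it was -0.59 and passed.

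Other genes of the pathway were taken from lists written with earlier results of these data known. Among 6 genes listed as relatives or binding partners of the inhibitors, all tested, 4 fell and 1 rose (median log2 change -0.54). So 83.3% were called beside 67.1% of all tested genes. The counts were 3 and 2 after the length and GC correction and 3 and 0 without the filter. Nfkbiz, a nuclear IkB protein needed by a subset of NF-kB targets, had 9.96 and 9.08 scaled CPM in CuNZ@Gel against 15.1 and 16.6 in Gel (log2 change -0.68). Nfkbil1, an IkB-like gene of the MHC region, and Bcl3, a nuclear IkB protein, were also lowered (-0.97 and -0.43). The call of Bcl3 was lost without Gel replicate 2 (-0.37) or without CuNZ@Gel replicate 1 (-0.34), with total reads only (-0.27), without the filter and after the length and GC correction (-0.01). The small GTPases Nkiras1 and Nkiras2, which bind inhibitor complexes, moved in opposite directions, at 0.83 and -0.64, and the call of Nkiras1, on 79 and 93 reads in CuNZ@Gel against 46 and 26 in Gel, was lost without the filter. Nfkbid did not pass, at 26.8 and 27.7 scaled CPM in CuNZ@Gel against 30.9 and 23.1 in Gel (log2 change 0.03). It passed as raised after the length and GC correction (0.27) and was at -0.18 without Gel replicate 2.

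The list of kinases above NF-kB and their partners held 12 tested genes, of which 7 rose and 2 fell (median log2 change 0.25), so 75% were called beside 67.1% of all tested genes. Those counts were 9 and 2 with total reads only, 5 and 2 after the length and GC correction, and 4 and 2 without the filter. Both kinases of the complex that Ikbkg organises are in this list. Chuk, its alpha kinase, had 79.3 and 75.9 scaled CPM in CuNZ@Gel against 53.0 and 51.9 in Gel (log2 change 0.56). Ikbkb, its beta kinase, named after its values were seen, had 60.0 and 64.9 scaled CPM in CuNZ@Gel against 60.0 and 59.7 in Gel, and its log2 change of 0.06 did not pass (limma adjusted p = 0.513). It was 0.25 and passed with total reads only, and was -0.07 after the length and GC correction. Map3k7, the kinase TAK1 that activates the complex, was raised by 0.84, while Tab1, a partner that activates TAK1, was lowered, at 11.0 and 11.3 scaled CPM in CuNZ@Gel against 20.2 and 20.9 in Gel (log2 change -0.83). Tab2 and Tab3, further partners of TAK1 named after their values were seen, were raised (limma adjusted p = 0.0324 and 0.0207). Tab2 had 146 and 137 scaled CPM in CuNZ@Gel against 123 and 128 in Gel, and Tab3 had 15.6 and 15.0 against 12.3 and 11.5. Tbk1, a related kinase of the interferon route, and its adaptor Tank were raised by 0.67 and 0.41. Map3k8, the kinase TPL2 that the Nfkb1 precursor holds, was lowered (-0.49).

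Of 24 tested ubiquitin genes of the pathway, 8 rose, 7 fell and 9 did not pass, so 62.5% were called beside 67.1% of all tested genes. Their median log2 change was 0.00 on rounding. The counts were 12 raised and 5 lowered with total reads only. The genes of the linear ubiquitin ligase complex were all 3 lowered. Rbck1 had 40.96 and 45.4 scaled CPM in CuNZ@Gel against 67.2 and 64.9 in Gel, and the log2 changes of Rbck1, Rnf31 and Sharpin were -0.60, -0.53 and -0.48. Otulin, which removes linear chains, was lowered to 35.9 and 38.3 scaled CPM in CuNZ@Gel, against 75.4 and 64.7 in Gel (log2 change -0.89). The ligase genes Itch and Rnf11, whose products work with A20, were raised. Itch had 98.9 and 88.8 scaled CPM in CuNZ@Gel against 34.6 and 41.1 in Gel (log2 change 1.29), and Rnf11 had a log2 change of 0.97. Traf3, which restrains the slower route, and Ripk1, a kinase of the TNF receptor, were raised by 0.82 and 0.63.

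**Figure D4:**
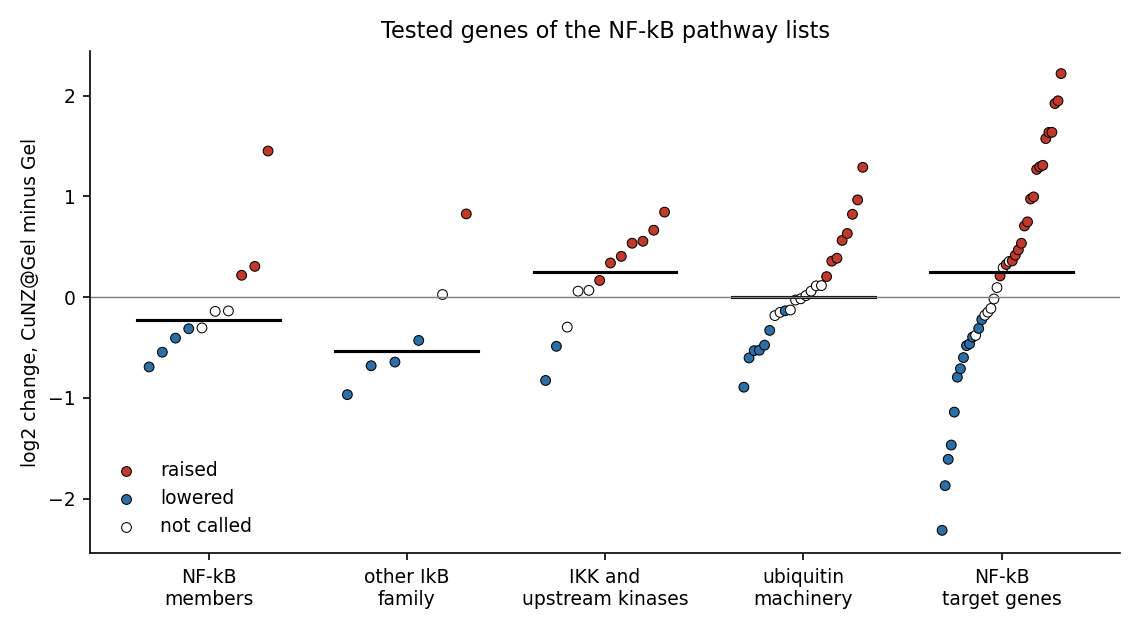
Log2 change of every tested gene in each NF-kB list, CuNZ@Gel minus Gel, with a bar at the median of the list, red for raised, blue for lowered and white for genes that did not pass (limma adjusted p under 0.05, 2 libraries per group). The medians are -0.22 for the NF-kB members, -0.54 for the IkB relatives and binding partners, and 0.25 for the kinases and their partners. They are 0.00 on rounding for the ubiquitin genes of the pathway and 0.25 for the target genes.

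Known NF-kB target genes moved in both directions. Of 50 listed, 40 were tested, and the other 10 lay below the filter. Of the 40, 19 rose, 13 fell and 8 did not pass, around a median log2 change of 0.25, so 80% were called beside 67.1% of all tested genes. Il1b, Ptges and Tnfrsf9, among the 19, passed the filter only through CuNZ@Gel, so that a lowered call was not open to them. With a filter at 5 scaled CPM, 15 of 30 were raised and 11 lowered (median log2 change 0.15). With total reads only, 21 were raised and 8 lowered. Cd83, a surface marker of activated antigen-presenting cells, had 35.2 and 30.8 scaled CPM in CuNZ@Gel against 168 and 168 in Gel (log2 change -2.32, limma adjusted p = 5.57e-16). Gadd45b, a stress gene, had 7.88 and 6.54 scaled CPM in CuNZ@Gel against 28.7 and 29.2 in Gel (log2 change -1.87). Bcl2a1b and Bcl2a1d, which encode near-identical survival proteins, were lowered by similar amounts (-1.61 and -1.47), and their reads may have been split in counting. Bcl2a1a, a further gene of this family named after its values were seen, was not lowered. It had 1.72 and 1.28 scaled CPM in CuNZ@Gel against 0.753 and 1.16 in Gel, and did not pass. On the other side, Il1rn, the interleukin 1 receptor antagonist, had 95.3 and 91.6 scaled CPM in CuNZ@Gel against 22.2 and 24.7 in Gel (log2 change 1.95). Cd80, a costimulatory ligand, and the chemokines Ccl4 and Ccl3 were raised by 1.64, 1.27 and 0.98. The cytokine and adhesion genes Il6, Il12b, Cxcl1, Cxcl3 and Vcam1 were listed at 0 in all 4 libraries.

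The genes whose pattern lay nearest to the 3 members with the largest changes were sought by Euclidean distance of centred log2 values over the 4 libraries, among 9687 genes whose mean reached 5 scaled CPM. Zwint (log2 change 1.48, distance 0.0419) and Lilrb4a (1.45, distance 0.0501) lay nearest to Ikbkg. Hmgb1 (-0.69, distance 0.00606) and Snrpa1 (-0.69, distance 0.0199) lay nearest to Nfkbib, and Ptgr3 (-0.54, distance 0.0118) and Trmt10b (-0.53, distance 0.0150) to Nfkbia. With 4 libraries in 2 groups, such likeness rests on few values.

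The direction of each change was followed over other ways of processing the values. Ikbkg, Rela, Nfkb1, Nfkbia and Nfkbib kept their direction and passed the test in all alternatives other than the minimum fold of 1.5, which only Ikbkg of them passed. Of the other 5 genes, Rel had its sign turned by the length and GC correction, and Nfkb2 and Nfkbie had theirs turned by scaling on total reads only.

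**Figure D5:**
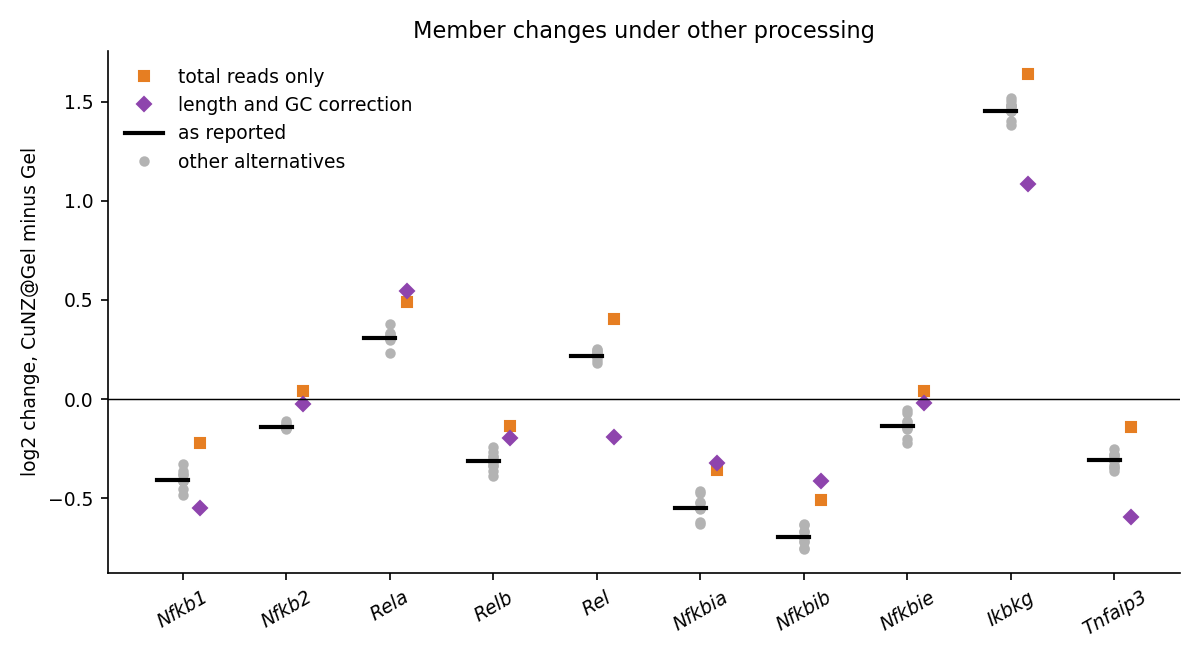
Log2 change of each NF-kB gene, CuNZ@Gel minus Gel, as reported (black bar) and under the alternatives (points), with total reads only in orange and the length and GC correction in purple. Ikbkg ranges from 1.08 to 1.64, and Rel from -0.19 to 0.40.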

How the data were processed

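Per the labels' protocols, total RNA of the 4 libraries was extracted with TaKaRa RNAiso Plus and prepared with a CORALL RNA-seq V2 kit. The submitters' processing notes name GATK, Salmon, STAR and fastp, and the build GRCm39. No version, setting, annotation, scaling method or use of strand is given in the sources used here. The deposited files hold 1 log2 value per gene symbol and library. From the values, these are log2(x + 1) of CPM divided by 1 factor per library, since 93.0% to 93.7% of the positive values up to 1 came out as whole reads within 0.02 reads. The further factors were 1.07 and 1.07 for CuNZ@Gel and 0.937 and 0.936 for Gel, and trimmed mean of M-values factors computed from the recovered reads were the same to 3 digits.

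The test was limma 3.58.1 (R 4.3.3), fitted to the deposited log2 values with a variance trend, the group alone in the model and all 4 libraries. The procedure was also run on simulated libraries, in which few genes changed and no change followed transcript length. Those libraries differ in this from the present ones, so the run does not show how well the calls hold here. Alternatives were relative log expression and upper-quartile scaling, total reads only, limma-voom on recovered reads, a pseudocount of 0.1, a filter at 5 scaled CPM or none, a minimum fold of 1.5, each library left out, the replicate number as a block, and a spline correction for transcript length and GC content (GENCODE vM21, 95.8% of tested genes matched). A crossed block was chosen after seeing the data. The planned count models were not run, because the files hold log2 values.

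The members, lists and tests were chosen with earlier results of these data known. All 10 members are named, up to 4 raised and 4 lowered genes of each list with the smallest p and any called against the direction of the rest, genes within 2 kb of a member, and the 2 nearest patterns for each of 3 members. Others are said to have been named after their values were seen. GENCODE vM21 and RefSeq are on GRCm38, another build than that of the files, so they served only for names, lengths, neighbours and printed promoters.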

Additional observations from a re-analysis of the deposited data

How the results depend on the processing

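Tested against a minimum fold of 1.5, 1 member was raised and 0 lowered, 13 genes of the pathway lists were raised and 7 lowered, and 1015 of all genes were raised and 940 lowered. The tests without 1 library gave 2 to 3 members raised and 3 to 4 lowered, 29 to 33 pathway genes raised and 21 to 26 lowered, and 2962 to 3399 of all genes raised and 3426 to 3778 lowered. Scaling by total reads only shifted the median of all genes by 0.18 (log2). Of all calls, 63.7% were then raised, against 48.1% as reported, with 3 members raised and 3 lowered, and 43 pathway genes raised and 18 lowered, against 35 and 26 as reported. It turned the sign of Nfkb2 (0.0413), Nfkbie (0.0387) and Slc35b2 (0.0181). The length and GC correction turned Rel (-0.19), Slc35b2 (0.12) and Ikbkb (-0.0692) and gave 2 members raised and 5 lowered. In the tests without 1 library, Nfkbid lay between -0.178, without Gel replicate 2, and 0.231, without Gel replicate 1. It was 0.27 after the length and GC correction. The cause was not tested. Outside the minimum fold, 127 of 140 member values kept direction and side of the threshold, 9 lost the call, 1 gained it and 3 reversed, and for 56 other genes named with a log2 change 737 of 764 did, 19 lost the call, 4 gained it and 4 reversed. With the replicate number as a block, 2 members were raised, since Rel no longer passed, and 4 lowered, and 3589 of all genes were raised and 3900 lowered. The labels do not say that the numbers pair libraries, and deviations of same-numbered libraries from their group means correlated at -0.116 across genes. A crossed block, chosen after seeing the data, gave 4030 genes raised and 4340 lowered. The planned edgeR and DESeq2 alternatives were not run, because the deposited values are log2 values. Members had at least 100 reads per library, so depth limits Tnfaip3 most, and 2 libraries a group limit all tests.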

Other observations

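NF-kB target genes at low levels, taken after their values were seen as the tested targets with a mean under 5 scaled CPM over all libraries, were 11 in number. Of these, 5 were raised (Il1a, Il1b, Ptges, Tnfrsf9 and Fas), 2 were lowered (Csf1 and Saa3) and 4 did not pass. Of all tested genes, 67.1% were called, so that these counts lay near the background. For 3 of the 11, Il1b, Ptges and Tnfrsf9, both Gel libraries lay under the filter of 1 scaled CPM. These 3 were tested only through CuNZ@Gel, and a lowered call was not open to them. Fas, a death receptor, had 7.63 and 7.36 scaled CPM in CuNZ@Gel, against 1.16 and 1.32 in Gel (log2 change 1.92). Il1b, the interleukin 1 beta gene, had 2.39 and 3.17 scaled CPM in CuNZ@Gel, against 0.218 and 0.311 in Gel. Saa3, an acute phase gene, had 1.76 and 1.71 scaled CPM in CuNZ@Gel, against 3.62 and 3.35 in Gel (log2 change -0.71). The call of Csf1 (-0.60) was lost without Gel replicate 2 (-0.36) or CuNZ@Gel replicate 1 (-0.44), without the filter and with total reads only (-0.48).

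Other targets were also named after their values were seen. Ccl2, a monocyte chemokine, had 12.0 and 13.2 scaled CPM in CuNZ@Gel, against 1.23 and 2.80 in Gel (log2 change 2.22). Ptgs2, which encodes the inducible cyclooxygenase, had 27.7 and 25.4 scaled CPM in CuNZ@Gel, against 7.68 and 8.02 in Gel (log2 change 1.64). Junb, an AP-1 factor, was lowered, with 48.0 and 53.0 scaled CPM in CuNZ@Gel, against 88.9 and 87.7 in Gel (log2 change -0.79). Traf1, a signalling adaptor, had 4.10 and 4.38 scaled CPM in CuNZ@Gel, against 11.1 and 10.0 in Gel (log2 change -1.14). These 4 genes passed the limma test.

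The next genes were also named after their values were seen. Cyld, a deubiquitinase that restrains NF-kB, had 73.0 and 69.6 scaled CPM in CuNZ@Gel, against 46.4 and 49.5 in Gel (log2 change 0.56), and Tax1bp1, an adaptor of the A20 enzyme, had a log2 change of 0.39. Both passed the test, but the call of Cyld was lost after the length and GC correction (0.14).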
